A study of Mus musculus with 2 samples.

Results

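Esrp1, Esrp2, Mbnl1, Mbnl2, Mbnl3, Ptbp1 and Ptbp2, the genes of 3 families of RNA-binding proteins that direct alternative splicing, were followed in mouse E14 embryonic stem (ES) cells before and after retinoic acid. They were chosen by name from the deposited tables (rows ESRP1, ESRP2, MBNL1, MBNL2, MBNL3, PTBP1 and PTBP2), and their rows make up 7 of 34376 genes, 28 of 55830 promoters and 60 of 83402 transcripts. E14 is a line of strain 129P2/OlaHsd, and both cultures were at passage 29. The undifferentiated cells had been kept with leukaemia inhibitory factor and 15% serum on fibroblast feeder cells, which were then depleted to an estimated share below 0.25%. The differentiated cells had spent 4.5 days without feeders in 10% serum with 0.1 µM all-trans-retinoic acid and are labelled a mixed population. Trypan blue counts put dead cells near 2% before and 8% after differentiation. Each condition has 1 library of poly(A) RNA, read on 2 lanes. Retinoic acid, feeders and serum differ together between the cultures, so their parts cannot be told apart. Below, after retinoic acid means the differentiated culture as a whole.

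Splicing regulators bind short motifs in pre-mRNA and cause a nearby exon to be kept or skipped. The Esrp proteins are epithelial regulators, known for the epithelial exon of Fgfr2. Mbnl proteins take over in maturing muscle, heart and brain, and their loss of function underlies much of myotonic dystrophy. Mbnl proteins also hold back the ES-cell exon of Foxp1. Ptbp1 is the broadly expressed polypyrimidine-tract-binding repressor, and Ptbp2 is its relative in developing neurons and testis. Ptbp1 represses an exon of Ptbp2 and the matching exon of its own mRNA, and skipping shifts the reading frame so that the mRNA is degraded by nonsense-mediated decay.

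Values are RPKM, which scale read numbers by model length and sequencing depth. Each ± gives the SD between a library's lanes (n = 2), which measures sequencing and read assignment only, and no test between the conditions exists. The values of weak single-exon genes implied 32040000 to 37780000 reads a lane, which makes 1 RPKM of a 1 kb model worth 32.0 to 37.8 reads. A log2 ratio is log2 of differentiated RPKM + 1 over undifferentiated RPKM + 1, and a gene is called higher or lower at 2-fold on this scale with at least 1 RPKM in either library. In these bulk samples, fewer cells of a type and less RNA per cell cannot be told apart.

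All 7 genes were above 1 RPKM in both libraries, and 5 of them, Esrp2, Mbnl1, Mbnl2, Mbnl3 and Ptbp2, were at least 2-fold higher after retinoic acid. Among all 17899 genes at 1 RPKM, 19.1% were called higher and 8.48% lower. None of the 7 was called lower, although Esrp1 stood at 8.95 RPKM before and 4.58 after, just short of 2-fold on the ratio scale. Ptbp1 differed little at a very high level. The median log2 ratio was 1.10 over the 7 genes and 0.12 over all genes at 1 RPKM. Lane values of each gene are given below. The share of all genes whose lanes do not overlap between the 2 libraries was not counted, so such separation does not set a gene apart.

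**Figure D1:**
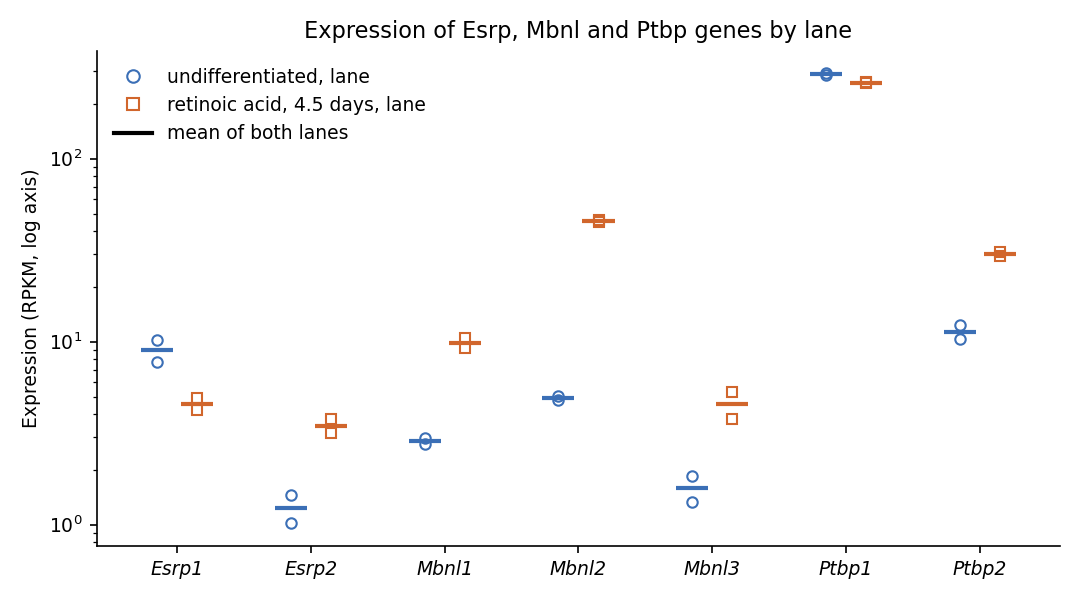
Expression of the 7 splicing regulators in each lane (RPKM, log axis). Circles are the 2 undifferentiated lanes, squares the 2 differentiated lanes and lines their means. Mbnl2 lies near 4.92 RPKM before and 45.7 after, while Ptbp1 lies between 258 and 293 RPKM in every lane.

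In the undifferentiated library the order of levels per length was Ptbp1, Ptbp2, Esrp1, Mbnl2, Mbnl1, Mbnl3, Esrp2. The lanes of Mbnl3 and Esrp2 overlapped there. In the differentiated library it was Ptbp1, Mbnl2, Ptbp2, Mbnl1, Esrp1, Mbnl3, Esrp2, and the lanes of Esrp1 and Mbnl3 overlapped. Within families the balance was different in the 2 libraries. Esrp2 made up 12.1% of the Esrp sum before and 43.1% after, and Mbnl2 made up 52.5% and 76.1% of the Mbnl sum. Ptbp2 made up 3.76% and 10.4% of the Ptbp sum. The Mbnl sum was 9.38 RPKM before and 60.1 after, against 10.2 and 8.05 for Esrp and 301 and 290 for Ptbp.

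Esrp1, the main epithelial regulator (chr4:11259080-11313930, minus strand, build mm9), had 7.76 and 10.1 RPKM before and 4.95 and 4.21 after retinoic acid. Both lanes of the first library were above both of the second. The means were 8.95 ± 1.68 and 4.58 ± 0.520 RPKM (n = 2 lanes), and the log2 ratio was -0.84 with a lane standard error of 0.197. The ratio was -0.56 from the first lanes and -1.10 from the second lanes, so the 2-fold call differs between them.

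By model, the difference in Esrp1 lay in those with internal starts. Start values are sums of model values, and how reads were divided among overlapping models is not known. The outermost start held 2.42 and 3.06 RPKM before and 2.62 and 2.92 after, so its lanes overlapped. The start 2321 bases downstream had 4.02 and 5.57 RPKM before and 2.13 and 1.14 after. The start 19605 bases downstream, that of the model Esrp1-206, had 1.32 and 1.51 RPKM before and 0.190 and 0.143 after. The outermost start thus made up 30.6% of the gene before and 60.6% after, with 31.2% and 30.1% in the lanes before and 53.0% and 69.4% after. With a gene sum of 1 RPKM this difference fell just below the limit of 30 percentage points. The model UC008RZL.1, one of those of the second start, had 2.88 and 4.68 RPKM before and 0.382 and 1.14 after. The other, UC008RZK.1, had 1.14 and 0.899 RPKM before and 1.75 and 0 after, so its differentiated lanes lay far apart.

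Esrp2, its close relative (chr8:108654219-108660874, minus strand), had 1.02 and 1.44 RPKM before and 3.77 and 3.18 after retinoic acid. Both differentiated lanes were above both undifferentiated lanes. The means were 1.23 ± 0.300 and 3.47 ± 0.417 RPKM, a 2.82-fold difference, and the log2 ratio was 1.00 with a lane standard error of 0.167. It passed 2-fold in the first lanes (1.24) and not in the second (0.77). Esrp2 overlaps Nfatc3 on the opposite strand, which had 9.15 RPKM before and 8.04 after. On that strand it also overlaps AC133195.2, with 0.495 and 0.232 RPKM in the lanes before and 1.59 and 2.21 after, and MKIAA4144, with 8.63 and 8.47 RPKM. The kit does not record strand, so reads of these genes and of Esrp2 cannot be told apart where they overlap. Of the 36-base words of the Esrp2 models, 6.01% also occurred in another gene, chiefly Nfatc3.

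The kind of Esrp2 model differed more than its total. The full-length coding model Esrp2-201 was listed at 0 in both undifferentiated lanes and at 1.53 and 1.91 RPKM in the differentiated lanes. This corresponds to about 179 and 216 reads in the differentiated lanes. Its share of the gene was 0% before and 49.5% after. The 5 models with a retained intron summed to 0.849 RPKM before and 1.25 after, or 69.0% and 36.0% of the gene. Their lanes, 0.640 and 1.06 RPKM before and 1.71 and 0.793 after, overlapped. These models are short, 419 to 1173 bases, and RPKM weighs short models up. None was implied to hold more than 8.90 reads in an undifferentiated lane, and their share by reads was not computed. A short coding model, Esrp2-207, held 0.368 RPKM before and 0.358 after, or about 24.1 and 25.4 reads in the lanes before and 25.4 and 17.2 after.

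Mbnl1 (chr3:60277032-60433670, plus strand) had 2.98 and 2.77 RPKM before and 10.4 and 9.20 after. All differentiated lanes were far above the undifferentiated ones. The means were 2.87 ± 0.148 and 9.81 ± 0.874 RPKM, 3.42-fold apart, with a log2 ratio of 1.48 and a lane standard error of 0.0912. Of its 3 start sites, that 28142 bases downstream of the first had 1.66 RPKM before and 4.74 after. The one 55646 bases downstream had 1.03 and 4.54 RPKM, and its share was 36.0% before and 46.2% after. In the lanes this share was 30.9% and 41.5% before and 49.9% and 42.1% after, so the undifferentiated lanes lay as far apart as the libraries. Both starts were higher after retinoic acid.

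Mbnl2 (chr14:120674891-120830920, plus strand) differed most of the 7 genes. It had 5.03 and 4.81 RPKM before and 46.3 and 45.1 after. The means were 4.92 ± 0.158 and 45.7 ± 0.876 RPKM, 9.29-fold apart, with a log2 ratio of 2.98 and a lane standard error of 0.0333. The first and the last listed start had similar shares of the gene in both libraries. The first start had 2.29 RPKM before and 21.1 after, 46.5% and 46.2% of the gene. The start 49125 bases downstream, with the single model UC007UZW.1, had 2.43 and 21.3 RPKM, or 49.4% and 46.6%. A start 30783 bases downstream was at 0.0110 RPKM before and 1.82 after. Mbnl2 overlaps 5830407P18Rik on the same strand, which had 0.251 RPKM before and 3.37 after.

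Mbnl3, the X-linked member (chrX:48466671-48559709, minus strand), had 1.33 and 1.84 RPKM before and 5.30 and 3.79 after. Both differentiated lanes were higher, but they lay further apart than for Mbnl1 and Mbnl2. The means were 1.59 ± 0.364 and 4.54 ± 1.07 RPKM, 2.86-fold apart, and the log2 ratio was 1.10 with a lane standard error of 0.244. It was 1.44 in the first lanes and 0.75 in the second. The start of the model Mbnl3-205 had 0.491 RPKM before and 2.11 after, 31.0% and 46.4% of the gene. A retained-intron model, Mbnl3-206, had 0.450 RPKM before and 0.356 after and went from 28.4% to 7.83% of the gene.

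**Figure D2:**
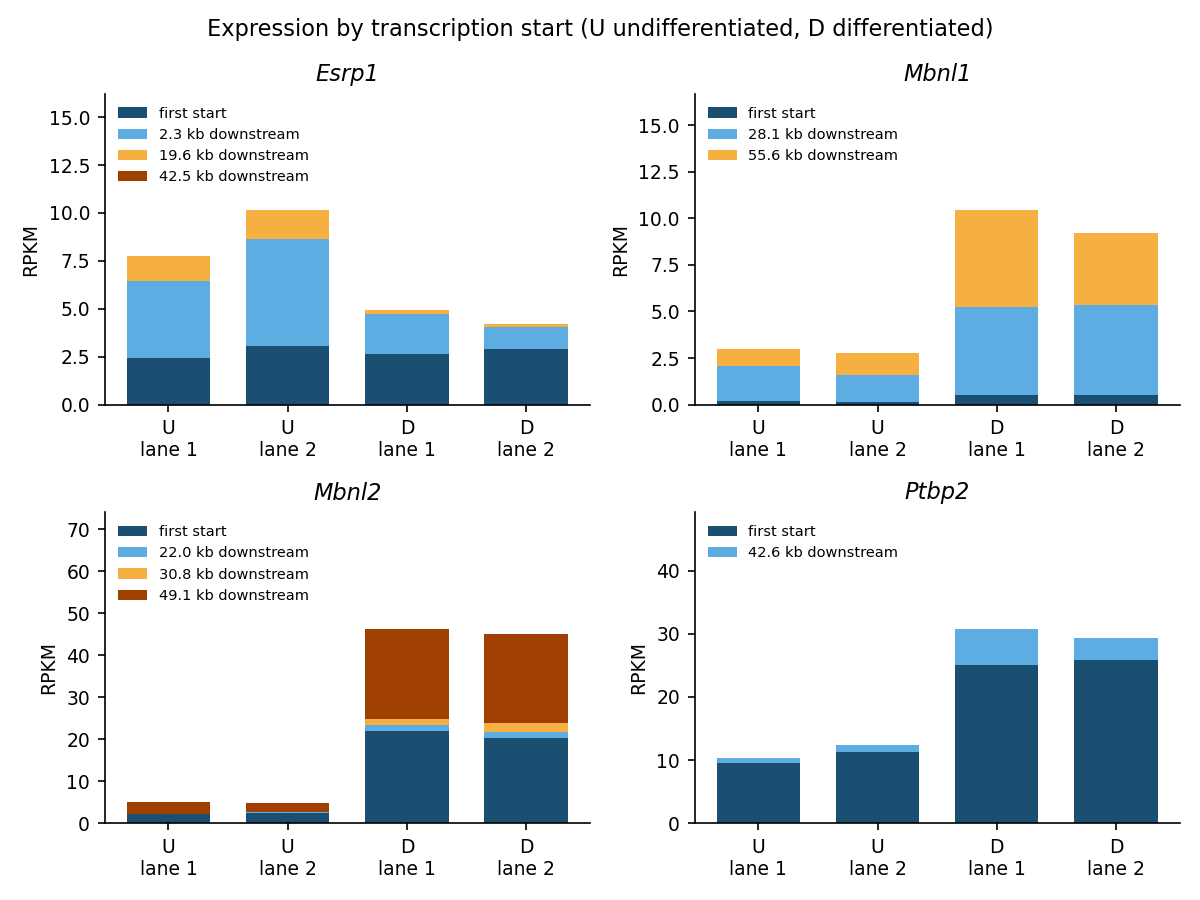
Expression from each start site of Esrp1, Mbnl1, Mbnl2 and Ptbp2 (RPKM, stacked bars, 1 bar per lane; U undifferentiated, D differentiated), with starts named by their distance downstream of the first. In Esrp1 the first start has 2.74 RPKM before and 2.77 after while the next 2 are lower after retinoic acid, and in Mbnl2 the first and last starts make up nearly the whole bar in both libraries.

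A 36-base exon is shared by the 3 Mbnl genes and is wholly coding. It is shown here because it tells apart the matched models of Mbnl2 and of Mbnl3. Capitals mark positions at which the 3 copies are not all alike (GENCODE M21 structures on GRCm38, 5′ to 3′).
Mbnl1 exon: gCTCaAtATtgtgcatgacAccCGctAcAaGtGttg
Mbnl2 exon: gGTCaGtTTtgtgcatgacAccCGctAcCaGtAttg
Mbnl3 exon: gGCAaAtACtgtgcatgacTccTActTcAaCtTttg
The Mbnl1 and Mbnl2 copies are identical at 31 of 36 bases, Mbnl1 and Mbnl3 at 26, and Mbnl2 and Mbnl3 at 24. Its length is a multiple of 3, so inclusion keeps the frame.

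In Mbnl2, the model with this exon, Mbnl2-202, had 0.236 and 0.470 RPKM before and 6.36 and 5.26 after. The model without it, Mbnl2-201, had 0.318 and 0.945 RPKM before and was listed at 0 in both lanes after. The 2 models thus lay in opposite order in the 2 libraries. They are a small part of the gene: 7 of 9 Mbnl2 models, with 80.0% of its RPKM before and 87.3% after, matched no GENCODE structure by identifier, and whether they hold the exon was not determined. In Mbnl3, the models with the exon summed to 0.522 RPKM before and 2.45 after, and those without it to 0.614 and 1.73. The models with the exon made up 45.9% of both kinds before and 58.5% after by RPKM. By reads implied from GENCODE lengths they made up 23.6% and 26.6% in the lanes before and 35.5% and 35.8% after, a minority in both libraries. For the models without the exon these lengths are uncertain. The GENCODE span minus the deposited span was -6586 bases for Mbnl3-201 and Mbnl3-203 and -3775 for Mbnl3-202. Whether the additional bases are exonic was not determined, so the read shares are approximate. Most of their RPKM was that of Mbnl3-205, a noncoding model of 1082 bases. Of Mbnl1 only 1 of 7 models was matched, Mbnl1-201, which contains the exon and had 0 and 0.354 RPKM before and 2.06 and 1.78 after.

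Ptbp1 (chr10:79317172-79327516, plus strand) was the most abundant of the 7 in all lanes. It had 293 and 287 RPKM before and 258 and 262 after. The means were 289.7 ± 4.17 and 259.8 ± 2.60 RPKM. The log2 ratio was -0.16 with a lane standard error of 0.0178, far from 2-fold. Scaling both libraries to equal RPKM sums gave a ratio of 0.09, so the direction of this small difference depends on the scaling. Of the 36-base words of the Ptbp1 models, 24.7% occurred in another gene, mostly the copies Gm4900 and Gm17134 and the overlapping E130317F20Rik, and the treatment of such reads is not known.

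Ptbp2 (chr3:119421464-119486306, minus strand) had 10.3 and 12.3 RPKM before and 30.8 and 29.3 after. The lanes of the libraries were well apart. The means were 11.3 ± 1.42 and 30.1 ± 1.08 RPKM, 2.66-fold apart, with a log2 ratio of 1.33 and a lane standard error of 0.123. Its outer start had 10.5 RPKM before and 25.5 after, 92.3% and 84.8% of the gene. The inner start, 42644 bases downstream, had 0.872 and 4.57 RPKM. Its most abundant model, UC008RDJ.1, had 6.80 RPKM before and 16.9 after, or 60.1% and 56.4% of the gene. Its share was 77.6% and 45.4% in the lanes before and 56.3% and 56.5% after. Ptbp2-201, a full-length coding model, had 0.921 and 3.31 RPKM in the lanes before and 4.39 and 3.35 after, and the lanes of the first library lay further apart than the 2 means.

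The 34-base exon by which Ptbp1 acts on both genes is shown for its likeness between them; capitals mark the positions that differ (exon 10 of 14 in the models Ptbp1-216 and Ptbp2-201, 5′ to 3′).
Ptbp1 exon: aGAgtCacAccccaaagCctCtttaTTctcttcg
Ptbp2 exon: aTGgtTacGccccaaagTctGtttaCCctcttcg
They are identical at 26 of 34 bases. The length is not a multiple of 3, so skipping shifts the frame. A 78-base exon (exon 8), which keeps the frame, also distinguishes Ptbp1 models.
Ptbp1 exon 8: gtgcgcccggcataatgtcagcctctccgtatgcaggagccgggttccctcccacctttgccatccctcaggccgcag

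Ptbp1 models with the 34-base exon summed to 78.6 ± 0.464 RPKM before and 61.1 ± 1.46 after. Those without it, Ptbp1-201 and Ptbp1-207, both annotated as targets of nonsense-mediated decay, summed to 152 ± 2.58 and 143 ± 4.08 RPKM. Among these models the share with the exon was thus 34.02% before and 29.98% after. The lanes, 33.8% and 34.2% against 30.8% and 29.2%, did not overlap. A further 2 Ptbp1 models, with 42.1 RPKM before and 36.5 after, matched no GENCODE structure by identifier. They are left out of the shares of both exons, and whether they hold them was not determined. Ptbp1-207 is a short model of 848 bases with 99.4 RPKM before and 99.99 after, and RPKM weighs short models up. By reads implied from model lengths, the share with the exon was 56.6% and 56.5% in the lanes before and 53.9% and 51.7% after. The direction was the same on both scales and the level was not. For the 78-base exon, models with it summed to 154 RPKM before and 140 after, or 66.5% and 68.9% of the matched models that span it. By implied reads the share was 62.1% and 60.9% in the lanes before and 62.4% and 60.8% after, so the lanes overlapped. In Ptbp2, the 1 matched model holds the 34-base exon and 4 others matched no structure, so its use could not be measured.

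**Figure D3:**
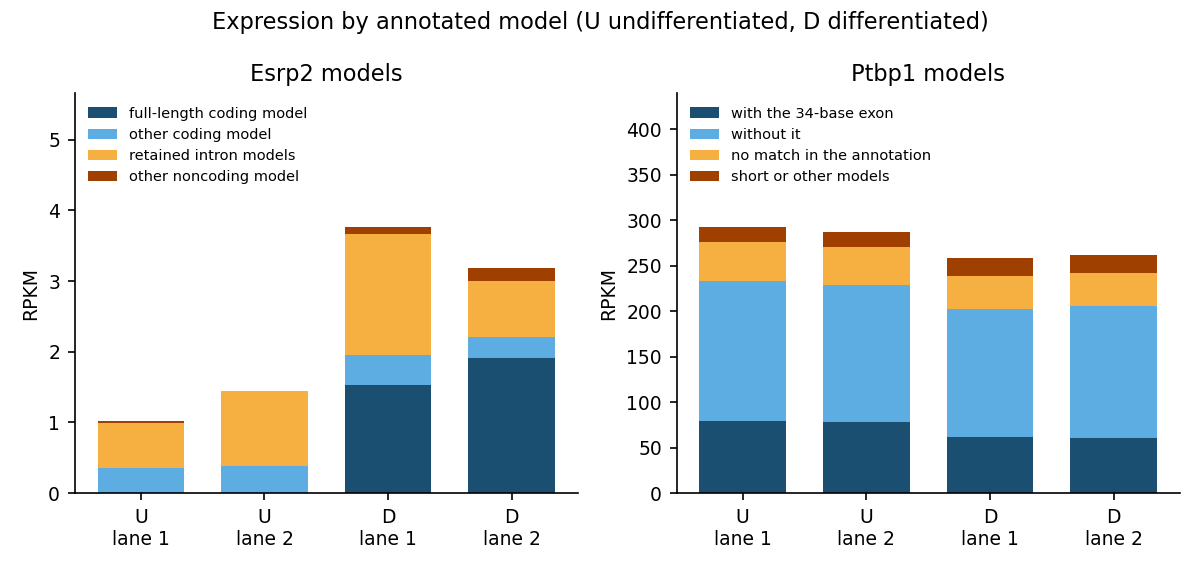
Expression by class of annotated model for Esrp2 and Ptbp1 (RPKM, stacked bars, 1 bar per lane; U undifferentiated, D differentiated). The full-length coding model of Esrp2 is listed at 0 in both undifferentiated lanes, and the Ptbp1 models with the 34-base exon sum to 78.6 RPKM before and 61.1 after.

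Of the 7 genes, Ptbp1 and Ptbp2 reached the 5 RPKM in both libraries required for a comparison of shares. None of their 6 starts and none of their 19 models differed by 30 percentage points, against 2.1% of 15541 starts and 1.55% of 30915 models of all genes. Counted per gene, the background is 4.52% of 4579 genes by starts and 5.32% of 6170 by models. With a requirement of 1 RPKM all 7 entered, and none of 28 starts and 1 of 60 models, Esrp2-201, passed, against 3.76% of starts and 2.9% of models, or 7.67% and 9.43% of genes.

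The promoters of Mbnl2 and Ptbp2 are shown because these genes had the highest levels among those called higher (RefSeq starts on GRCm38.p6, 250 bases before to 50 after the start). Both strands were searched for the nuclear-receptor half-sites AGGTCA and GGGTCA and for GGGCGG, the core of a GC box, and matches are in capitals.
Mbnl2 promoter, chr14:120275419-120275718, plus strand: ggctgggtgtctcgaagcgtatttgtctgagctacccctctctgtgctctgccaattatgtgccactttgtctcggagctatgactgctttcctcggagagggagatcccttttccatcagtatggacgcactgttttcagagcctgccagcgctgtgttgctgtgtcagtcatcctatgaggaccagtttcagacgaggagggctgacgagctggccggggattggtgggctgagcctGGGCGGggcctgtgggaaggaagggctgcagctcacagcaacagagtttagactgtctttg
Ptbp2 promoter, chr3:119783339-119783638, minus strand: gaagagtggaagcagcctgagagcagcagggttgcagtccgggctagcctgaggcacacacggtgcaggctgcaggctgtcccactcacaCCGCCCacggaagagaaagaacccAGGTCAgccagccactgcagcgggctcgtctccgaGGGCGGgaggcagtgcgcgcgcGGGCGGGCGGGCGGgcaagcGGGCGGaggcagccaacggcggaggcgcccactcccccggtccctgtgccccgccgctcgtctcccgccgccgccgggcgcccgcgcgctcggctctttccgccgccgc
The Mbnl2 window held 1 GGGCGG and neither half-site. The Ptbp2 window held 6 GGGCGG and 1 AGGTCA. Of 32851 RefSeq promoters of this length, 35.7% held GGGCGG, 16.3% AGGTCA, 13.7% GGGTCA and 27.5% either half-site. The Ptbp1 window held 1 GGGTCA and 1 GGGCGG, and that of Mbnl3 no match. The Mbnl1 window at chr3:60500929-60501228 held 4 GGGCGG and neither half-site, and that at chr3:60472580-60472879 held no match. A match in this window is a description of letters and not a site.

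Other splicing regulators gave a background for the 7 genes. Of 35 on a list, 28 reached 1 RPKM, and 5 were called higher, 2 lower and 21 neither, with a median log2 ratio of 0.28. The shares are to be read against 19.1% and 8.48% of all genes. The highest ratios belonged to Tia1, a U-rich-binding regulator (8.29 to 28.9 RPKM, 1.69), Celf2 (2.49 to 9.99, 1.66) and Msi1, a neural-progenitor RNA-binding protein (6.68 to 17.8, 1.29). The lowest belonged to the neuronal Elavl2 (12.2 to 1.22 RPKM, -2.57) and Elavl3 (3.998 to 0.452, -1.78) and to Celf4 (2.21 to 0.897, -0.76). Ptbp3, the third Ptbp gene, had 7.79 RPKM before and 17.2 after, but its ratio was 0.33 in the first lanes and 1.58 in the second. The neuronal Rbfox1 and Rbfox3 stayed below 1 RPKM.

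**Figure D4:**
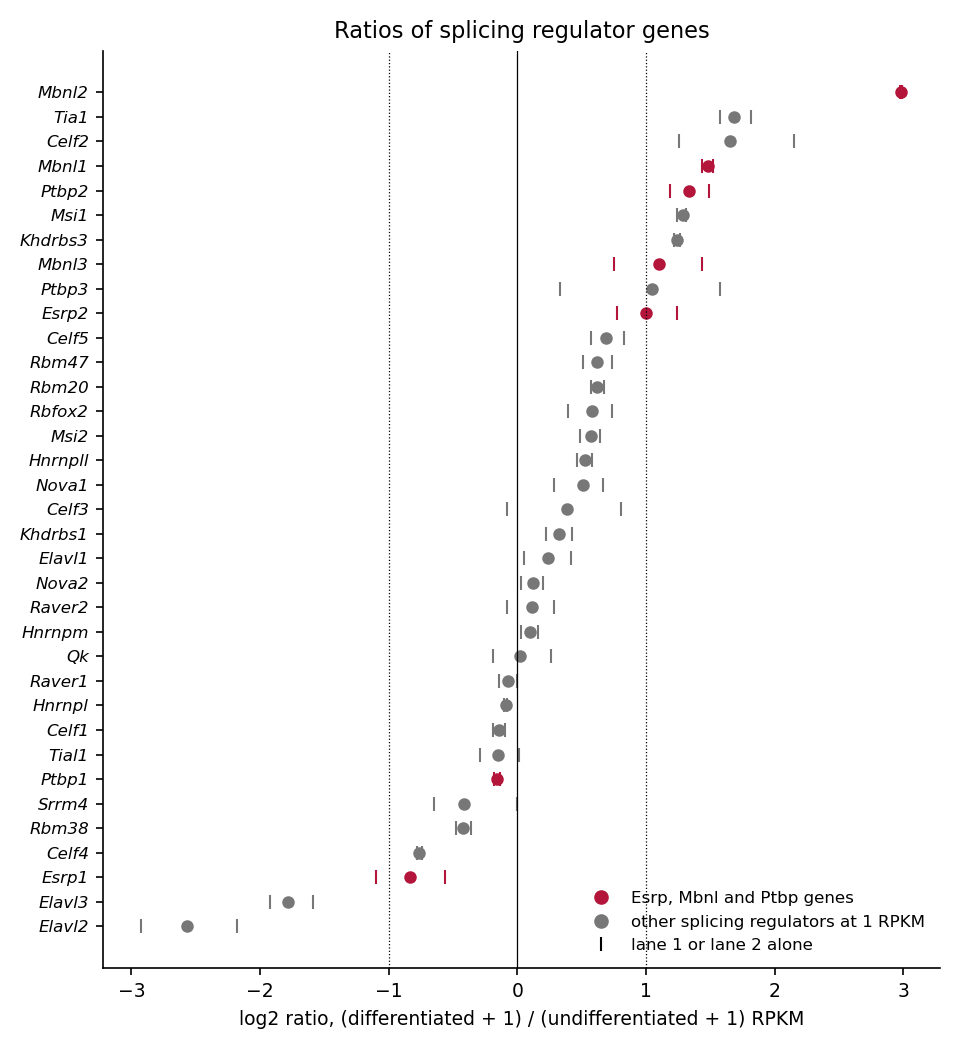
Log2 ratio (differentiated over undifferentiated, RPKM + 1) of the 7 genes and of the other regulators at 1 RPKM; points are ratios of the library means, small marks those of each pair of lanes, and dotted lines 2-fold. Mbnl2 at 2.98 lies above every other regulator, and Elavl2 at -2.57 lies lowest.

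Over the 2 libraries, the regulator nearest in log2 ratio was Celf4 for Esrp1 (difference 0.0748), Ptbp3 for Esrp2 and for Mbnl3 (0.0457 and 0.0501), and Celf2 for Mbnl1 (0.174). It was Msi1 for Ptbp2 (0.0445) and Tial1 for Ptbp1 (0.00979). The nearest to Mbnl2 was Tia1, 1.29 away. With 2 libraries this likeness is a distance between single ratios. The lane standard error of the ratio was 0.675 for Msi1 and 0.523 for Ptbp3, above their distances here.

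Known targets of the 3 families were compared for the shares of their models. Of 18 target entries, which include Mbnl1, Mbnl2 and Ptbp2, 9 had 5 RPKM in both libraries, and none had a model differing by 30 percentage points, against 5.32% of 6170 genes. These 9 include Pkm, whose exon choice Ptbp1 controls in dividing cells. Foxp1 is also among them, and its model UC009DBO.1 made up 30.8% and 0% in the lanes before and 0% and 36.8% after. Foxp1 thus passed 30 percentage points in either pair of lanes alone, in opposite directions. With 1 RPKM required, 2 of 15 passed, against 9.43% of 9367 genes. In Cd47, a membrane protein with Mbnl-dependent exons, the model ENSMUST00000114496 made up 60.6% before and 24.4% after, but 76.7% and 35.7% in the lanes before. In Dlg4, the postsynaptic scaffold whose exon Ptbp proteins repress, ENSMUST00000138004 made up 11.5% and 53.3%, with 0% and 38.4% in the lanes before. The lanes of the undifferentiated library thus differed by about as much as the libraries.

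Fgfr2, an Esrp target, had 3.29 RPKM before and 18.5 after, Cd44 had 3.55 and 11.3, and Enah had 150 and 62.0. Of the 4 Esrp targets 2 were called higher and 1 lower, and of the 6 Mbnl targets at 1 RPKM and the 6 Ptbp targets, 4 each were called higher and none lower, against 19.1% and 8.48% of all genes. These counts include Mbnl1, Mbnl2 and Ptbp2 themselves. The Ptbp targets Tpm1 (39.8 to 885 RPKM) and Actn1 (81.7 to 340) were higher, while Pkm had 1802 RPKM before and 1026 after, a log2 ratio of -0.81. The Mbnl target Foxp1 had 10.4 and 20.6 RPKM.

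Marker lists of cell types the cultures could hold differed between the libraries in either direction, and their part in the results above was not tested. Of 6 epithelial markers 3 were higher and 1, Epcam, lower, with sums of 246 and 1241 RPKM, and Krt8 and Krt18 led them. Of 6 mesenchymal markers 5 were higher (144 to 631 RPKM). All 6 extraembryonic endoderm markers were higher (2.90 to 275), all 6 pluripotency markers lower (3560 to 265), and of 6 fibroblast markers 4 were higher (28.3 to 226). Of 5 matched neuronal markers none was higher and 1, Tubb3, was lower. The list summed to 38.1 RPKM before and 16.4 after, mostly Tubb3 (37.4 to 14.0). Syt1 had 0.359 RPKM before and 1.52 after, short of a call, and Snap25, Rbfox3 and Dcx were below 1 RPKM in both libraries. Of 5 matched skeletal muscle markers (sum 397 to 660 RPKM), 1 was higher, Tnnt3 (0.165 to 2.59), and 1 lower, Mylpf (49.1 to 4.004). Acta1, which made up most of the sum, had 348 RPKM before and 653 after and was not called. Myog was at 0.0619 RPKM before and listed at 0 after, and Ckm was below 1 RPKM in both libraries.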

How the data were processed

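Poly(A) RNA was sequenced from 1 undifferentiated and 1 differentiated culture, with single-end reads of 36 bp and 2 lanes per library, per the labels' protocols. The authors deposited gene, promoter and transcript tables whose unit is not named. The deposited values were read as RPKM because low values of single-exon genes fell on multiples of 1 read (80.9% to 81.6% within 5%). The build is mm9, per the submitters' processing notes. The aligner, counter, annotation and handling of multiply mapped reads are each not given in the sources used here.

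Gene rows were matched by symbol, and 34126 distinct symbols entered the comparison. Ratios used a pseudocount of 1 RPKM, a floor of 1 RPKM in either library and a 2-fold limit, and shares a limit of 30 percentage points with 5 RPKM in both. With 1 library per condition no p-value is given. Of 60 member transcripts, 38 matched a GENCODE M21 structure by Ensembl identifier; no coordinates were converted. Promoter sequences are from RefSeq (GRCm38.p6). Scripts ran in Python 3.11.15 with numpy 2.4.6, pandas 2.3.3 and matplotlib 3.10.9 and were tested on simulated data.

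The members and lists were chosen with earlier results of these data known. Named genes were the 7 members, the 3 highest and 3 lowest other regulators, each member's nearest regulator, targets past the share limit and any marker. Other target genes and Ptbp3, Rbfox1 and Rbfox3 were named after their values were seen. Map2 and Myod1 were not matched.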

Additional observations from a re-analysis of the deposited data

How the results depend on the processing

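No paired analysis was possible because each condition has 1 library; lanes of one library are not replicates. Among the log2 ratios of the 7 genes, that of Ptbp1 alone changed sign under these alternatives and ranged from -0.28 to 0.09 (-0.25 without the model Ptbp1-207, an alternative chosen after seeing the data). Ratios ranged from -1.10 to -0.56 for Esrp1, 0.77 to 1.43 for Esrp2, 1.36 to 1.74 for Mbnl1, 2.86 to 3.22 for Mbnl2, 0.75 to 1.46 for Mbnl3 and 1.18 to 1.57 for Ptbp2. The count of members called higher was 3 in place of 5 with a floor of 5 RPKM, which 5 of the 7 genes reached. It was also 3 with ratios centred on their median and in the second lanes, and 4 with trimmed-mean scaling. In the second lanes 1 member was called lower. Over all genes, those called higher were 2554 of 12426 with the floor of 5 RPKM and 2890 of 17899 when centred. They were 3096 of 17899 with trimmed-mean scaling and 3516 of 17920 in the second lanes, where 1634 were called lower. With a floor of 5 RPKM, 1 of 19 other regulators was called lower, against 1126 of 12426 genes. The median ratio of the other regulators was 0.12 with no floor, 0.16 centred, 0.19 with trimmed-mean scaling, 0.50 with equal sums and 0.35 in the second lanes. Member models past the share limit numbered 1 with 1 RPKM required. Target genes past it numbered 2 with 1 RPKM required. With a limit of 20 percentage points 1 of 9 passed, Tpm1. Foxp1 was the 1 that passed of 10 in the first lanes and of 9 in the second lanes. The shares of all genes passing at 20 percentage points or in single lanes were not counted. Over all genes the median ratio was 0.12 as deposited and 0.33 with equal sums, and genes called higher made up 69.3% of those called as deposited, 59.4% when centred, 63.8% with trimmed-mean scaling and 80.5% with equal sums. The lane standard error of the ratio was largest for Mbnl3 (0.244), Esrp1 (0.197) and Esrp2 (0.167), and the spread between cultures was not measured. The causes of these differences were not tested.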
